A study of Mus musculus with 2 samples.

Results

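The 10 genes described here, Irf8, Batf3, Irf4, Zbtb46, Klf4, Tcf4, Zeb2, Bcl6, Relb and Spi1, encode transcription factors of the dendritic cell (DC) lineages. They were chosen by name from the 27998 genes of the count matrices, and all 10 were present. Their transcripts were followed across 6 classes of antigen-presenting cells from B16Ova melanomas grown for 13 days in the flanks of female mice. KO mice (Tcf7 cKO) carried E8i-cre and floxed Tcf7 alleles (FL/FL), and WT mice carried the same floxed alleles without the Cre. The E8i element of Cd8a drives Cre in mature CD8 T cells. Each group gave 1 droplet library from 3 pooled tumors whose cells cannot be told apart, so no test of KO against WT was possible. Sorted CD8 T cells, CD4 T cells, a CD11c+ MHCII+ gate that used CD24, and other CD45+ cells were mixed in equal numbers, so the sort sets the class sizes and these are not compared. Intervals below are 95% intervals of counting error only.

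Conventional DCs arise from progenitors that need SPI1 (PU.1), an ETS-family protein that opens myeloid enhancers. IRF8 and its partner BATF3 maintain type 1 conventional DCs (cDC1s), which cross-present antigen to CD8 T cells. IRF4, KLF4 and ZEB2 act in type 2 conventional DCs (cDC2s), and ZEB2 also acts in monocytes and plasmacytoid DCs. TCF4 (E2-2) is the defining E protein of plasmacytoid DCs, ZBTB46 marks committed conventional DCs, BCL6 is a repressor needed for cDC1s, and RELB is the NF-kappa-B subunit tied to DC maturation.

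The KO library held 1219 barcodes and 11758449 UMIs, and the WT library 1120 barcodes and 9283014 UMIs. A cell entered a class when its cluster carried the class's markers and the cell itself had UMIs of at least 2 of them and of fewer than 2 T cell markers. This gave 174 KO and 157 WT cDC1s, 70 KO and 34 WT cDC2s, 62 KO and 97 WT mature DCs, 4 KO and 6 WT plasmacytoid DCs, 83 KO and 26 WT monocytes, and 44 KO and 43 WT macrophages. The names rest on these markers alone and stand for cDC1-like, cDC2-like and so on. Every marker of a class's own list was detected in both libraries, and the summed T cell markers stayed between 0 and 13.2 CPM. None of the 10 factors was used for clusters or classes. The targeted gene, Tcf7, stood at 80.4 CPM in KO T cells and 144 CPM in WT T cells, and at 30.3 CPM in KO and 42.8 CPM in WT mature DCs, while 1 KO and 0 WT UMIs were found in cDC1s. Clusters 8 and 15 together, 44 KO and 62 WT cells, each with a T cell marker UMI, were left unnamed and unused. The libraries shared 1 barcode, in none of the 6 classes.

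Levels are given as CPM, a gene's UMIs scaled to a fixed total of all UMIs of the class in a library. CPM values of different genes are not compared with each other. Between classes, a gene was called when it differed by at least 2-fold the same way in both libraries, each interval excluding 1, with at least 20 UMIs over both classes in each library. Shares of cells with a UMI are expected shares after thinning every cell to 2000 UMIs, averaged over all draws, with shallower cells left out.

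On GRCm38, with GENCODE M21 genes, Irf8 lies on chromosome 8 (120736358 to 120756694, plus strand), Batf3 on chromosome 1 (191097847 to 191108945, plus) and Irf4 on chromosome 13 (30749226 to 30766976, plus). Chromosome 2 holds Zeb2 (44983632 to 45117395, minus), Spi1 (91082390 to 91115756, plus) and Zbtb46 (181387762 to 181459426, minus). Klf4 is on chromosome 4 (55527143 to 55532466, minus), Relb on chromosome 7 (19606217 to 19629438, minus) and Bcl6 on chromosome 16 (23965052 to 23988852, minus). All 10 factors are annotated as protein-coding.

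The promoter windows of Irf8 and Batf3, the factors that were higher in cDC1s than in cDC2s, and of Zeb2, which was nearly missing in cDC1s, are printed from RefSeq (GRCm38.p6, 250 bases before to 50 after a start). Irf8 lies at chr8:120736108-120736407 on the plus strand, Batf3 at chr1:191098164-191098463 on the plus strand, and Zeb2 at chr2:45117393-45117692 on the minus strand. Capitals mark the GAS motif TTCNNNGAA, a palindrome known as the target of interferon-activated STAT proteins.
Irf8: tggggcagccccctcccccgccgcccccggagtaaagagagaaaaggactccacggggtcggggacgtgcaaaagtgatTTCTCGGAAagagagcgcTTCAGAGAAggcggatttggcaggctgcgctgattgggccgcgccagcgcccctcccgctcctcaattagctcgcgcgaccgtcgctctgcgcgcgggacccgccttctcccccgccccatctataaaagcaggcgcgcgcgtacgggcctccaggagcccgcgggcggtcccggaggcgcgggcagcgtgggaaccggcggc
Batf3: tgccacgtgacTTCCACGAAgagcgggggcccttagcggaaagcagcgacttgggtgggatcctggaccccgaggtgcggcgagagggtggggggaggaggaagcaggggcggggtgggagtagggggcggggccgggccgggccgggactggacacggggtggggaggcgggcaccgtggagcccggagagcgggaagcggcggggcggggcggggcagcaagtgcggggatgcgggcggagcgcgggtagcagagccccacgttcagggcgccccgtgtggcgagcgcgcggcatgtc
Zeb2: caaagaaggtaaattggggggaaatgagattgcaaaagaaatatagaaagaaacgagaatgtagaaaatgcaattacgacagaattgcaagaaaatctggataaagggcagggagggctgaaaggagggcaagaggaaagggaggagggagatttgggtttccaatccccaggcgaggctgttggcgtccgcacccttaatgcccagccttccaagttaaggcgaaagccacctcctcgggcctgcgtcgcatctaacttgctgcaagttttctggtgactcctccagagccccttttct

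The Irf8 window held 2 GAS matches, beginning at -171 and -153 from the start. Batf3 held 1, at -239, and Bcl6 1, at -118. The motif occurs in 8.30% of all 32851 windows of the table. The Batf3 window begins from a start 567 bases away from that of the GENCODE gene used for positions. Windows were matched for 7 of the 10 genes, and the other 4 of these held no GAS match. An ISRE (GAAA, any 2 bases, GAAA; 3.44% of all windows), an ETS-IRF composite (GGAA, any 2 bases, GAAA; 2.72%) and a kappa-B site (GGGA, any base, TTTCC; 0.411%) matched in none of the 7. An AP-1 site (TGANTCA, 7.81%) and the E-box CACCTG (20.2%) matched in the Zbtb46 window alone, at -61 and -238, and that window lies 35038 bases from the GENCODE start. All motifs were searched on both strands, and ISRE and composite matches can overlap.

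Spi1 was found in all 6 classes. It stood at 928 CPM in KO monocytes and 907 CPM in WT monocytes, and at 840.1 and 821 CPM in KO and WT cDC2s. KO and WT macrophages had 567 and 582 CPM, cDC1s 515 and 469 CPM, mature DCs 492 and 462 CPM, and the few plasmacytoid DCs 327 and 507 CPM. Monocytes and cDC2s were the top pair in both libraries and did not differ beyond counting error (1.10-fold, 0.998 to 1.22 in KO, and 1.10-fold, 0.919 to 1.32 in WT). The next step down, cDC2s over macrophages, was 1.48-fold in KO (1.27 to 1.74) and 1.41-fold in WT (1.18 to 1.70). T cells served as a background class, with a Spi1 UMI expected in 0.112% of KO and 0.176% of WT cells, against 81.8% of KO and 82.8% of WT monocytes.

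Among ETS relatives of Spi1 the pattern by class was different. Etv3, a repressor of the same family, stood at 306 CPM in KO and 327 CPM in WT mature DCs, against 25.7 and 33.4 CPM in KO and WT cDC1s. Spib, a close relative of Spi1, had 32.0 CPM in KO and 57.8 CPM in WT mature DCs and under 1 CPM in cDC1s of either library. Of the 6 ETS genes with enough counts, 3 were higher and 1 lower in mature DCs than in cDC1s, beside 9.87% higher and 13.8% lower of 7506 genes. Fli1 was the lower one, at 1.68 CPM in KO and 0 CPM in WT mature DCs, against 36.0 CPM in KO and 42.1 CPM in WT cDC1s.

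Irf8 set cDC1s apart from cDC2s. It reached 1818 CPM in KO cDC1s (1769 to 1869) and 1947 CPM in WT cDC1s (1892 to 2003), against 210 CPM in KO and 189 CPM in WT cDC2s. The excess was 8.67-fold in KO (7.55 to 10.0) and 10.3-fold in WT (8.38 to 12.9). An Irf8 UMI was expected in 89.1% of KO and 91.1% of WT cDC1s, 25.9% of KO and 19.1% of WT cDC2s, and 12.7% of KO and 6.73% of WT T cells. Activated T cells are known to express Irf8 themselves.

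Plasmacytoid DCs were too few to place Irf8 firmly. The gene stood at 3151 CPM in 4 KO cells and 905 CPM in 6 WT cells. All of it lay in 3 KO cells and 2 WT cells, so the top place went to plasmacytoid DCs in KO and to cDC1s in WT. Over the whole cluster, with its cells outside the marker rule, the level was 1245 CPM in 10 KO cells and 368 CPM in 17 WT cells. In the lower part of the order, KO monocytes (265 CPM), macrophages (241 CPM) and cDC2s did not differ between adjacent ranks beyond counting error, but the ends of that run did, with monocytes 1.27-fold above cDC2s (1.04 to 1.54). WT macrophages (384 CPM) stood 1.89-fold above WT monocytes (203 CPM, interval 1.303 to 2.79), and 3 cells held 66 of their 116 Irf8 UMIs. Among cells with UMIs of fewer than 2 cDC1 markers, Irf8 was 244 CPM in 34 WT macrophages and 219 CPM in 17 WT monocytes.

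Batf3 did not differ between mature DCs and cDC1s beyond counting error. KO and WT mature DCs had 276 and 291 CPM, and KO and WT cDC1s 273 and 252 CPM. The mature DC over cDC1 ratio was 1.01 in KO (0.848 to 1.20) and 1.15 in WT (0.986 to 1.34). Both classes stood well above cDC2s, with 79.9 CPM in KO and 39.8 CPM in WT. No Batf3 UMI was found among 4 KO and 6 WT plasmacytoid DCs. After thinning, with 1 random draw for each pair of genes, 62 of 174 KO cDC1s and 65 of 155 WT cDC1s carried UMIs of both Irf8 and Batf3.

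Irf4, Klf4 and Zeb2 were the factors with known cDC2 roles, and each took another pattern. Irf4 was sparse, with 21 UMIs (20.98 CPM) in 70 KO cDC2s and 9 UMIs (18.9 CPM) in 34 WT cDC2s. Mature DCs had 16.8 CPM in KO and 15.1 CPM in WT, and the cDC2 over mature DC ratio was 1.25 in both libraries (0.562 to 2.96 in KO, 0.465 to 3.23 in WT). A single Irf4 UMI was found among 174 KO cDC1s and another among 157 WT cDC1s. At this depth the thinned share of cDC2s with Irf4 was 3.88% in KO and 4.34% in WT, against 1.89% of KO and 1.31% of WT T cells.

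Zeb2 ran opposite to Irf8 among conventional DCs. It was highest in monocytes, at 334 CPM in KO and 297 CPM in WT, followed by macrophages at 268 and 198 CPM in KO and WT and cDC2s at 192 and 170 CPM. The cDC1 level was 6.70 CPM in KO (19 UMIs) and 2.48 CPM in WT (6 UMIs). That was below the T cell level of 19.1 CPM in KO and 14.3 CPM in WT. A Zeb2 UMI was expected in 1.28% of KO and 0.351% of WT cDC1s, 25.9% of KO and 27.5% of WT cDC2s, and 2.13% of KO and 1.74% of WT T cells. In the draw for Irf8 and Zeb2, 10 of 69 KO cDC2s and 9 of 33 WT cDC2s carried Zeb2 without Irf8. Another 15 KO and 7 WT cDC2s carried Irf8 without Zeb2, and 6 KO and 1 WT cDC2s carried both.

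Klf4 stood higher in cDC2s and monocytes than in cDC1s, macrophages and mature DCs. KO and WT cDC2s had 82.9 and 81.7 CPM, and KO and WT monocytes 77.9 and 88.6 CPM. These neighbours did not differ beyond counting error in either library. A single KO monocyte held 25 of the 59 Klf4 UMIs of its class, and a single WT monocyte 8 of 17. The cDC1s had 31.0 CPM in KO and 46.7 CPM in WT, 0.374-fold (0.274 to 0.512) and 0.571-fold (0.394 to 0.844) the cDC2 level, and the WT value is short of the fold for a call. A Klf4 UMI was found in 41 of 174 KO and 55 of 157 WT cDC1s, 35 of 70 KO and 17 of 34 WT cDC2s, and 23 of 83 KO and 5 of 26 WT monocytes. Macrophages had 34.9 CPM in KO and 26.5 CPM in WT. Mature DCs were at the low end of these, with 2 UMIs in KO (3.37 CPM) and 12 in WT (15.1 CPM), 1 of 62 and 8 of 97 cells carrying one. The 5 Klf4 UMIs of WT plasmacytoid DCs (90.5 CPM) came from 2 cells, and KO ones held 0.

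Zbtb46 was found in conventional DCs and was at or near 0 in monocytes and macrophages. It stood at 59.3 and 58.2 CPM in KO and WT cDC1s, 50.5 and 83.0 CPM in mature DCs, and 37.0 and 35.6 CPM in cDC2s. Plasmacytoid DCs held 2 Zbtb46 UMIs in KO (46.7 CPM) and 1 in WT (18.1 CPM), under their floors of 3 counts at 70.0 and 54.3 CPM. Their whole cluster held 6 in KO (53.4 CPM) and 9 in WT (43.6 CPM), of which 4 and 8 lay in cells outside the marker rule. Monocytes held 1 Zbtb46 UMI in 83 KO cells and 0 in 26 WT cells, where the floor of 3 counts is 15.6 CPM. Macrophages held 0 UMIs in 44 KO cells, with a floor of 8.73 CPM, and 2 in 43 WT cells, both in 1 cell. Bcl6 was sparse throughout, between 6.99 and 11.8 CPM in the KO classes other than plasmacytoid DCs, and between 0 and 15.3 CPM in the WT ones. No neighbours in its order differed beyond counting error in either library, so no class can be called its top.

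Relb marked the mature DCs. It reached 700.4 CPM in KO (635 to 771) and 709 CPM in WT mature DCs (652 to 770.3). KO and WT cDC1s had 38.8 and 45.0 CPM, and KO and WT cDC2s 52.9 and 67.0 CPM. The mature DC over cDC1 ratio was 18.1 in KO (14.6 to 22.5) and 15.8 in WT (12.8 to 19.5). A Relb UMI was expected in 73.5% of KO and 75.1% of WT mature DCs, and in 13.4% of KO and 12.8% of WT T cells. Below mature DCs, no neighbouring classes differed beyond counting error. Classes further apart did in WT, where plasmacytoid DCs (8 UMIs, 145 CPM) stood 3.22-fold above cDC1s (1.36 to 6.57). In KO the same ratio was 1.20 (0.144 to 4.45), from 2 plasmacytoid UMIs.

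The NF-kappa-B list moved with Relb between these classes. Of its 10 other members, all with enough counts, 9 were higher and 0 lower in mature DCs than in cDC1s, beside the same 9.87% and 13.8% of all genes. Nfkb2, whose product pairs with RELB, had 285 CPM in KO and 255 CPM in WT mature DCs, against 29.6 and 26.0 CPM in KO and WT cDC1s. Map3k14, the NIK kinase that starts Nfkb2 processing, had 234 and 236 CPM in KO and WT mature DCs, against 15.9 and 25.2 CPM in KO and WT cDC1s. Rel stood at 323 CPM in KO and 439 CPM in WT mature DCs, against 40.6 and 52.0 CPM in KO and WT cDC1s. The inhibitor gene Nfkbia stood at 1243 CPM in KO and 1507 CPM in WT mature DCs, against 265 and 284 CPM in KO and WT cDC1s. Against cDC2s, 5 of the 10 were higher and none lower in mature DCs, beside 9.72% higher and 13.2% lower of 5218 genes.

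Tcf4, on chromosome 18 (69343356 to 69689079, plus strand), was highest in plasmacytoid DCs among the 6 classes. All 4 KO and all 6 WT cells of that class carried it, at 653 CPM in KO (434 to 944) and 815 CPM in WT (594 to 1090.2). The next of the 6 classes, monocytes, had 58.1 CPM in KO and 52.1 CPM in WT, and cDC1s were low at 18.7 and 21.9 CPM in KO and WT. B cells, outside the 6 classes, stood between, at 287 CPM in 9 KO cells (143 to 513) and 198 CPM in 7 WT cells (53.9 to 507). These B cell levels rest on 11 UMIs in KO and 4 in WT. Over the whole plasmacytoid cluster Tcf4 stood at 498 CPM in 10 KO cells and 543 CPM in 17 WT cells. Bcl11a, a factor of the same lineage, had 443 CPM in KO and 416 CPM in WT plasmacytoid DCs, against 46.9 and 45.0 CPM in KO and WT cDC1s. Id2, an inhibitor of E proteins, ran the other way, at 23.3 CPM in KO and 0 CPM in WT plasmacytoid DCs, against 1288 and 1419.8 CPM in KO and WT cDC1s. These were the 1 higher and the 1 lower of 6 tested E protein and ID factors, beside 2.74% higher and 1.28% lower of 6851 genes.

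**Figure D1:**
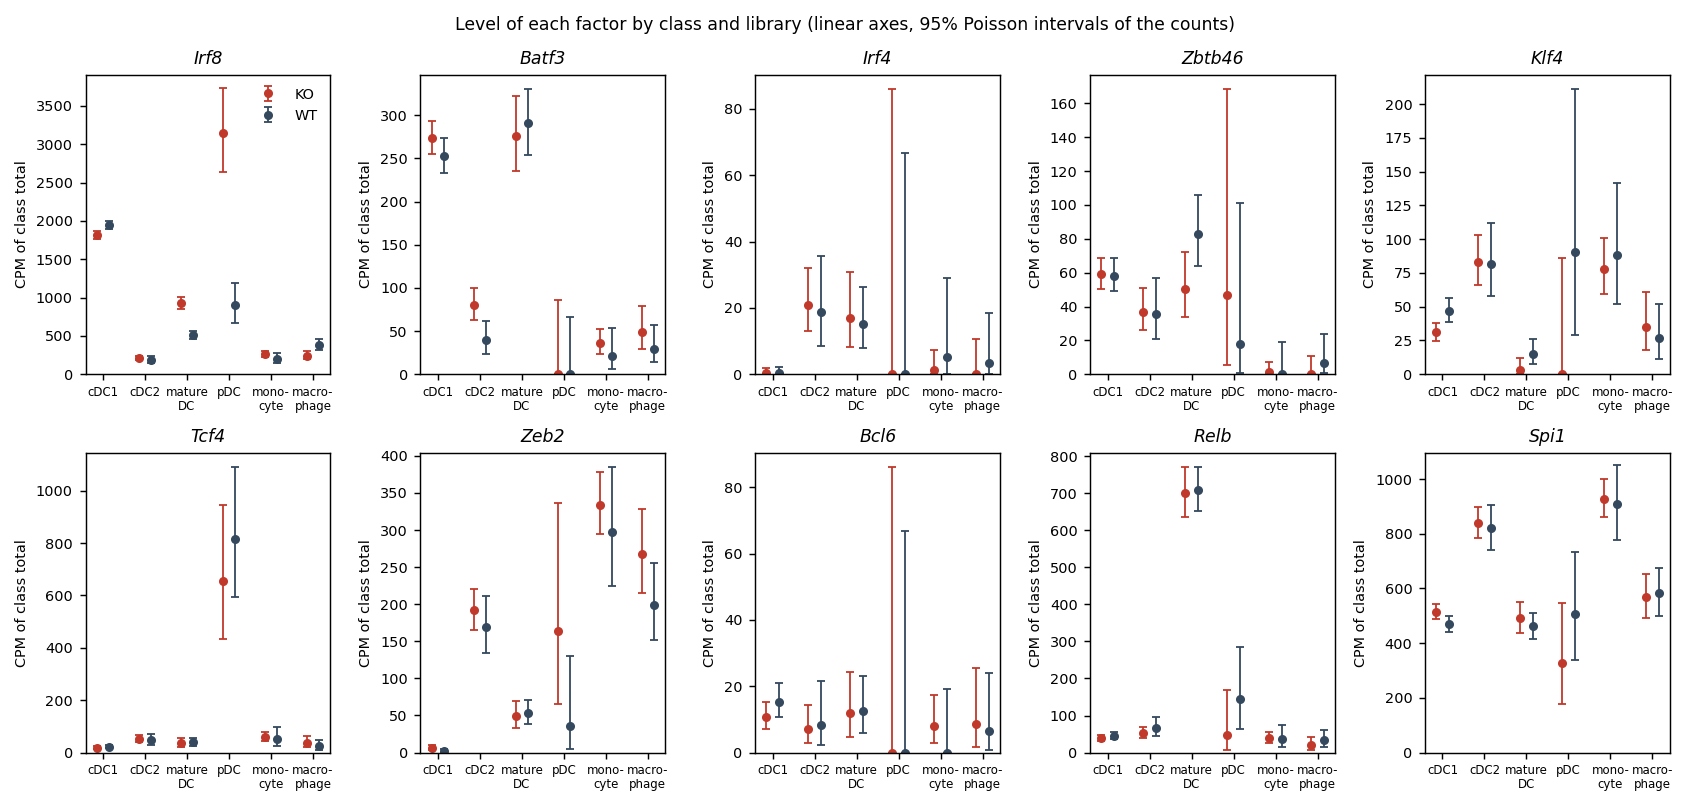
CPM of each factor (y axis, linear, each panel with its own scale) in 6 classes (x axis), KO left of WT, with 95% Poisson intervals of the counts. Relb stands at 700.4 CPM in KO and 709 CPM in WT mature DCs, Tcf4 is highest in plasmacytoid DCs, and Zeb2 is near the axis in cDC1s (6.70 CPM in KO, 2.48 in WT).

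Counting over all members, of 46 member comparisons with enough counts, 8 were higher and 7 lower. In cDC1s over cDC2s, 2 of 9 members were higher (Irf8, Batf3) and 2 lower (Zeb2, Tcf4), beside 3.53% and 5.07% of 7356 genes. In mature DCs over cDC1s, Relb and Zeb2 were higher and Klf4 lower among 9, beside 9.87% and 13.8%. In mature DCs over cDC2s, Irf8, Batf3 and Relb were higher and Klf4 and Zeb2 lower among 9, beside 9.72% and 13.2% of 5218 genes. In plasmacytoid DCs over cDC1s, Tcf4 was higher and Batf3 lower among 8, beside 2.74% and 1.28% of 6851 genes. In monocytes over cDC2s, none of 7 was called, beside 6.04% higher and 3.15% lower of 3806 genes. In macrophages over monocytes, Klf4 was lower among 4, at 0.448-fold in KO (0.219 to 0.842) and 0.299-fold in WT (0.112 to 0.730), beside 7.05% of 3150 genes lower and 5.05% higher.

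Other lists were counted by the same rule, as descriptions, since their genes could enter the clustering that made the classes. Of 7 tested genes known from cDC1s, 6 were higher in cDC1s than in cDC2s and none lower, beside 3.53% and 5.07% of all genes. Ppt1, a lysosomal thioesterase, had 720.2 CPM in KO and 779 CPM in WT cDC1s, against 73.9 and 77.5 CPM in KO and WT cDC2s. Of 6 tested genes known from cDC2s, 5 were lower in cDC1s and none higher, beside the same shares. The integrin gene Itgam was one, at 1.06 CPM in KO and 1.24 CPM in WT cDC1s, against 72.9 and 79.6 CPM in KO and WT cDC2s. Of 6 tested monocyte and macrophage factors, 4 were higher and 1 lower in monocytes than in cDC2s, beside 6.04% and 3.15% of all genes. Cebpb, a C/EBP factor of myeloid cells, was among the higher ones, with 1153 CPM in KO and 1626 CPM in WT monocytes, against 165 CPM in KO and 138 CPM in WT cDC2s.

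For each factor the 3 genes most alike over the 12 class-by-library levels were found by Pearson's r of log2(CPM + 10) among 2661 genes with a mean of at least 50 CPM. These points share libraries and the plasmacytoid points rest on 4 KO and 6 WT cells, so r is a description. Relb was most like Etv3 (0.985), Supt4a (0.983) and Stat4 (0.967). Tcf4 was most like Abhd17b (0.972), Xist (0.971) and Klk1 (0.965), of which Klk1 was a class marker. Zeb2 was most like Oasl2 (0.967), Zeb2os (0.928) and Atp6v0c (0.921). Zeb2os is antisense to Zeb2, and without a stated use of strand their reads cannot be told apart. Batf3 was most like Snrpe (0.951), Id2 (0.9498) and H2afz (0.942), and Bcl6 like Id2 (0.918), Batf3 (0.893) and Cfl1 (0.863). Zbtb46 was most like Pkib (0.954), Oat (0.931) and Rpl19 (0.899), and Klf4 like Capza1 (0.940), Was (0.938) and Themis2 (0.901). Spi1 was most like Zfand5 (0.933), Msn (0.932) and Gm9733 (0.926), and Irf4 like Ccl17 (0.945), Gm5424 (0.830) and Ccnd2 (0.796). Irf8 had the lowest top value of the 10, with Nelfe (0.891), Scand1 (0.860) and Tbl1x (0.859).

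Comparing the KO library with the WT library, most members were not called within a class. A gene was called where KO and WT differed by at least 1.5-fold with an interval excluding 1 and at least 20 UMIs over both, in classes of at least 30 cells in each library. Monocytes (26 WT cells) and plasmacytoid DCs were below that number. Of 32 member and class pairs, 3 were higher and 3 lower in KO. By class, 1 higher and 1 lower of 9 in cDC1s stood beside 3.4% and 3.18% of 8597 genes, and 1 higher and 0 lower of 9 in cDC2s beside 4.57% and 3.57% of 5822. In mature DCs, 1 higher and 1 lower of 8 stood beside 3.64% and 4.41% of 5306 genes, and in macrophages 0 higher and 1 lower of 6 beside 4.08% and 4.57% of 3697. The median log2 ratio of the tested members was -0.10 in cDC1s, 0.11 in cDC2s, -0.05 in mature DCs and 0.42 in macrophages, and that of all tested genes 0.02, 0.03, -0.04 and -0.05 in the same order.

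Irf8 was higher in KO mature DCs. It stood at 926 CPM in KO (850.2 to 1007) and 509 CPM in WT (461 to 561), a ratio of 1.82 (1.60 to 2.07). The call held under all 13 settings, the main one included, though changing the UMI minimum could not alter it at these counts. An Irf8 UMI was found in 49 of 62 KO and 64 of 97 WT mature DCs, and after thinning in 56.4% and 43.9%. The 3 KO cells with most Irf8 held 64, 63 and 59 UMIs, 33.8% of the KO total. The top 3 WT cells held 41, 32 and 26, 24.4% of the WT total. Counts per 10000 UMIs had a median of 3.90 in KO and 2.61 in WT cells, with upper quartiles of 10.4 and 8.58.

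Of the 3 mature DC clusters, cluster 17 had the largest Irf8 ratio, and those of clusters 14 and 21 had intervals including 1. In cluster 17, led by Il4i1, Il12b and H2-Eb2, Irf8 stood at 927 CPM in 25 KO cells and 184 CPM in 34 WT cells, 5.04-fold (3.86 to 6.67). In cluster 14, led by Fscn1, it stood at 938 CPM in 30 KO cells and 808 CPM in 53 WT cells, 1.16-fold (0.975 to 1.38). In the small cluster 21 the levels were 820.5 and 668 CPM in 7 KO and 10 WT cells, 1.23-fold (0.698 to 2.14). Relb did not share the pattern, with 611 CPM in KO and 603 CPM in WT cells of cluster 17. Zeb2 there was 86.9 CPM in KO and 86.5 CPM in WT. Batf3 stood at 132 CPM in KO and 184 CPM in WT cells of cluster 17, 0.718-fold (0.475 to 1.07).

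Unlike Batf3, the cDC1 markers with enough counts moved with Irf8 in cluster 17. Of its 9 cDC1 markers, 4 had enough counts and all 4 were higher in KO, beside 5.48% higher and 5.2% lower of the 3501 genes with enough counts in that cluster. With 25 KO cells the cluster is below the 30 cells set for calls by class. The list summed to 1068 CPM in KO and 414 CPM in WT, and to 370.0 CPM in KO and 116 CPM in WT without Ifi205, its most abundant member. Clec9a, a receptor for dead cells, had 96.5 CPM in KO and 16.2 CPM in WT, and Naaa had 103 CPM in KO and 29.7 CPM in WT. Xcr1, the chemokine receptor of cDC1s, had 14 UMIs in KO and 3 in WT. Il12b, the interleukin-12 subunit, had 724 CPM in KO and 192 CPM in WT, 3.77-fold (2.88 to 5.00). Of the 9 mature DC markers 4 were also higher in KO there, with sums of 9029 CPM in KO and 8217 CPM in WT. Of the 9 cDC2 markers there, 6 had enough counts, and of these Sirpa was higher and Clec4b1, Ifitm1 and Clec12a lower in KO. Their list summed to 1078 CPM in KO and 1970.5 CPM in WT, of which Ifitm1 alone made up 438 CPM in KO and 1354 CPM in WT. The other 8 cDC2 markers summed to 640.3 CPM in KO and 616 CPM in WT. In cluster 14 the cDC1 list summed to 43.5 CPM in KO and 63.6 CPM in WT. The part of these shifts in the Irf8 ratio was not tested.

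Splitting mature DCs by their cDC1 markers, a division made after the values were seen, 12 of 62 KO cells (19.4%, 10.4 to 31.4) and 6 of 97 WT cells (6.19%, 2.30 to 13.0, Clopper-Pearson) held UMIs of at least 2. Irf8 was 1422 CPM in those KO cells and 408 CPM in those WT cells. In the remaining cells it was 708 CPM in KO and 520.5 CPM in WT, 1.36-fold (1.16 to 1.59), which is under the fold for a call. Batf3 was 176 CPM in the KO and 344 CPM in the WT cells with at least 2 such markers, 0.513-fold (0.298 to 0.890). In the cells with fewer it was 320 CPM in KO and 285 CPM in WT, 1.12-fold (0.896 to 1.41). Among KO cells 19 and among WT cells 22 held 1 or 2 such markers and so lay near the division. The share with at least 2 was higher in KO in the other classes counted too. It was 80% in KO and 61.8% in WT cDC2s, and 56.6% in KO and 34.6% in WT monocytes. Macrophages had 29.5% in KO and 20.9% in WT. The KO and WT intervals overlapped in each class, mature DCs included. Other genes known from cDC1s were also higher in KO mature DCs, with Ppt1 at 114 CPM in KO and 31.4 CPM in WT and Cd24a at 106 CPM in KO and 57.8 CPM in WT. Those were the tested members of that list, 2 of 2, beside 3.64% of all genes higher.

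**Figure D2:**
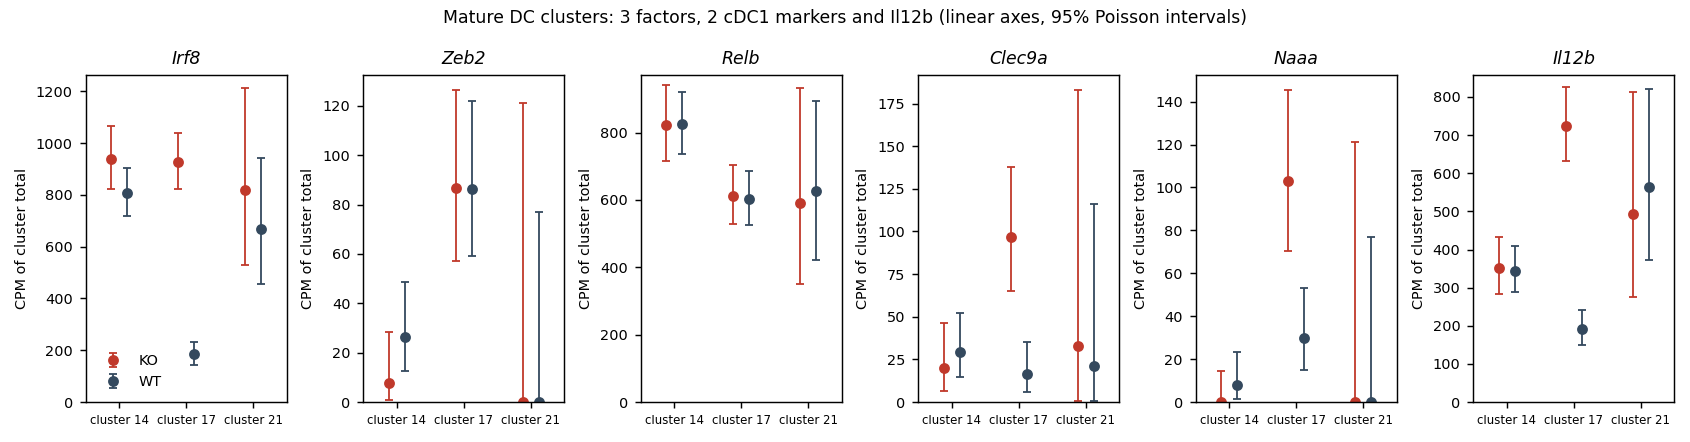
CPM (y axis, linear, own scale per panel) of Irf8, Zeb2, Relb, the cDC1 markers Clec9a and Naaa, and Il12b in 3 mature DC clusters (x axis), KO left of WT, with 95% Poisson intervals. Irf8 is 927 CPM in KO and 184 CPM in WT in cluster 17, while Relb is 611 and 603 CPM there.

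Zbtb46 was lower in KO mature DCs, with 30 UMIs (50.5 CPM) in KO and 66 (83.0 CPM) in WT, a ratio of 0.609 (0.381 to 0.9504). In cluster 14 it was 59.4 CPM in KO and 98.1 CPM in WT, and in cluster 17 it was 48.3 and 67.6 CPM in KO and WT. Each of these intervals includes 1. The ratios of Batf3, Irf4, Tcf4, Zeb2, Relb and Spi1 in mature DCs lay between 0.907 and 1.12, each with an interval including 1. Nfil3, a factor upstream in DC development, was lower in KO mature DCs, at 195 CPM in KO and 308 CPM in WT, as was Runx3, at 75.8 CPM in KO and 122 CPM in WT. These were the 2 lower of 10 tested genes of that list, beside 4.41% of all genes, and none was higher. Of 4 tested genes known from cDC2s, Pdcd1lg2, the PD-L2 gene, was higher, at 190.3 CPM in KO and 99.3 CPM in WT, and Cd72 was lower, at 26.9 CPM in KO and 81.7 CPM in WT. For these the shares of all genes were 3.64% higher and 4.41% lower.

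In cDC1s, none of the members tied to that lineage was called between the libraries. Irf8 was 0.934-fold in KO (0.898 to 0.972), Batf3 1.08-fold (0.973 to 1.21), Zbtb46 1.02-fold (0.809 to 1.28) and Spi1 1.10-fold (1.02 to 1.19). Bcl6 had 30 UMIs in KO (10.6 CPM) and 37 in WT (15.3 CPM), a ratio of 0.693 with a wide interval (0.413 to 1.15). Outside the members, Nfil3 was lower in KO cDC1s, at 20.8 CPM in KO and 31.4 CPM in WT, 0.663-fold (0.464 to 0.944). Stat5a was lower too, at 11.6 CPM in KO and 19.4 CPM in WT. These were 2 of 11 tested genes of the list of other DC development factors, beside 3.18% of all genes, and 0 were higher, beside 3.4%. Irf8 ranged over the 5 cDC1 clusters from 1429 to 1999 CPM in KO and from 1427 to 2449 CPM in WT. Cluster 18, led by Cxcl9, held 37 KO and 12 WT cells, at 1999 CPM in KO and 2449 CPM in WT. Cycling cells, those with UMIs of at least 2 cycling genes, were 51 of 174 KO and 35 of 157 WT cDC1s. They held 1592 CPM of Irf8 in KO and 1728 CPM in WT, and other cDC1s 1957 CPM in KO and 2025 CPM in WT.

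Klf4 was lower in KO cDC1s, with 88 UMIs (31.0 CPM) in KO and 113 (46.7 CPM) in WT, a ratio of 0.665 (0.498 to 0.887). By cluster, the levels were 40.3 CPM in KO and 45.9 CPM in WT in cluster 10, and 32.1 CPM in KO and 60.0 CPM in WT in cycling cluster 16. Immediate early genes were lower too in KO cDC1s. Fos stood at 567 CPM in KO and 1328 CPM in WT, Jun at 56.8 CPM in KO and 171 CPM in WT, and Nr4a1 at 20.8 CPM in KO and 43.3 CPM in WT. Fos was also lower in KO cDC2s (313 CPM, WT 471), mature DCs (70.7 CPM, WT 142) and macrophages (384 CPM, WT 761). Such genes are known to respond to tissue dissociation, and their part in the Klf4 ratio was not tested. Klf4 was 1.01-fold in KO cDC2s (0.686 to 1.53) and 1.32-fold in KO macrophages (0.496 to 3.72), and mature DCs held too few Klf4 UMIs to compare. Of the 8 BATF and AP-1 genes, 3 of 7 tested were lower and 0 higher in KO cDC1s, beside 3.18% lower and 3.4% higher of all genes. In KO macrophages 4 of 7 were lower and 0 higher, beside 4.57% and 4.08%, and in KO cDC2s 1 of 8 lower and 0 higher, beside 3.57% and 4.57%. In KO mature DCs, Fos was the 1 lower of 6 and Batf2 the 1 higher, at 28.6 CPM in KO and 6.29 CPM in WT, beside 4.41% and 3.64%.

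Zeb2 was called higher in KO cDC1s on few counts, 19 UMIs in 13 cells in KO and 6 UMIs in 3 cells in WT, a ratio of 2.71 (1.04 to 8.28). A single WT cell held 4 of the 6. Cluster 16 gave 11 of the KO UMIs, and cluster 19 gave 4 of the WT UMIs and 0 of the KO ones. Both levels were under those of T cells in the same library.

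In cDC2s, Batf3 was higher in KO, with 80 UMIs (79.9 CPM) in 28 of 70 cells, against 19 UMIs (39.8 CPM) in 11 of 34 WT cells, a ratio of 2.01 (1.21 to 3.51). The cDC1 markers summed to 1326 CPM in KO and 656 CPM in WT cDC2s, and to 540 and 268 CPM without Ifi205, the most abundant. Of that remainder, Naaa alone made up 423 CPM in KO and 220 CPM in WT. Of the 4 cDC1 markers with enough counts, Wdfy4, Naaa and Ifi205 were higher in KO, beside 4.57% of all genes. Xcr1 and Gcsam were at 0 in both libraries. Other genes known from cDC1s went both ways in cDC2s. Of the 5 tested, Cd36 was higher in KO, at 24.0 CPM in KO and 0 CPM in WT. Rab7b was lower, at 26.0 CPM in KO and 71.2 CPM in WT, as was Cd24a, whose protein was used in the sort, at 106 CPM in KO and 230.4 CPM in WT. The shares of all genes were 4.57% higher and 3.57% lower. In a division of cDC2s made after the values were seen, Batf3 in cells with UMIs of at least 2 cDC1 markers was 77.8 CPM in 56 KO cells and 45.2 CPM in 21 WT cells, 1.72-fold (0.971 to 3.25). The remaining cells held 15 Batf3 UMIs in KO and 4 in WT, under the 20 needed for a comparison. Irf8 in cDC2s was 1.11-fold in KO (0.865 to 1.44), Zeb2 1.13-fold (0.867 to 1.48) and Irf4 1.11-fold (0.488 to 2.76). Of 6 tested ETS genes, Etv3 was lower in KO cDC2s, at 32.0 CPM in KO and 73.3 CPM in WT. Elf1 and Elf4 were higher, with Elf1 at 89.9 CPM in KO and 50.3 CPM in WT, beside the same 4.57% higher and 3.57% lower. The part of these shifts in the Batf3 ratio was not tested.

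In macrophages, Irf8 was lower in KO, with 83 UMIs (241 CPM) in 44 cells, against 116 (384 CPM) in 43 WT cells, a ratio of 0.629 (0.469 to 0.841). The 3 WT cells with most Irf8 held 34, 18 and 14 UMIs, 56.9% of the WT total, and carried UMIs of 8, 7 and 3 of the 9 cDC1 markers. The top KO cells held 13, 6 and 6 UMIs, with 2, 1 and 4 such markers. Without the 3 top cells of each library the log2 ratio was -0.09, against -0.67 with them. In macrophages with fewer than 2 cDC1 markers Irf8 was 222 CPM in 31 KO cells and 244 CPM in 34 WT cells. The cDC1 list summed to 361 CPM in KO and 628 CPM in WT macrophages, and the melanoma markers to 154 CPM in KO and 95.9 CPM in WT. Irf5, an IRF of inflammatory macrophages, was lower as well, at 148 CPM in KO and 261 CPM in WT. None of the 6 other IRF genes with enough counts was called between KO and WT in cDC1s, cDC2s or mature DCs. Zeb2 in macrophages was 1.35-fold in KO (0.964 to 1.90) and Spi1 0.974-fold (0.791 to 1.20).

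**Figure D3:**
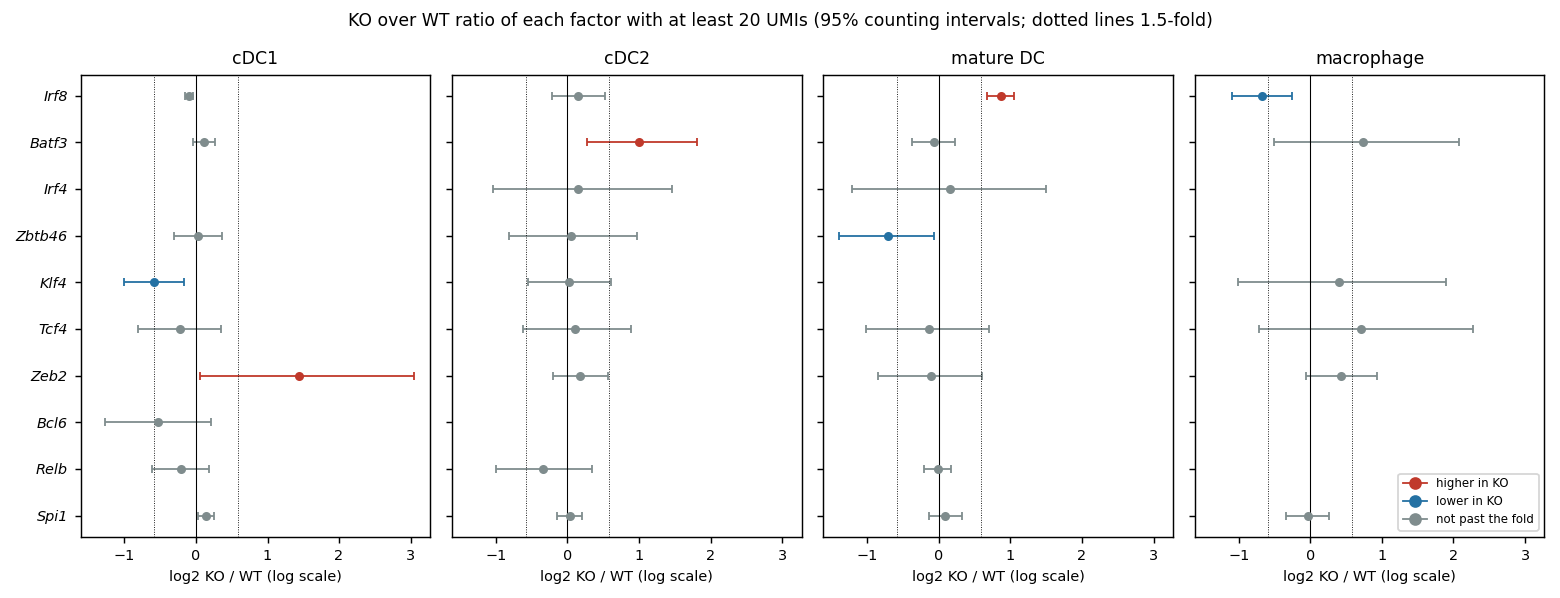
Log2 ratio of KO over WT (x axis) for each factor with at least 20 UMIs (y axis) in the 4 classes of at least 30 cells per library, with 95% counting intervals and dotted lines at 1.5-fold. Red marks members higher in KO (Zeb2 in cDC1s, Batf3 in cDC2s, Irf8 in mature DCs) and blue those lower (Klf4 in cDC1s, Zbtb46 in mature DCs, Irf8 in macrophages).

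In the smallest classes values are given without a call. KO and WT monocytes had 265 and 203 CPM of Irf8 (1.31-fold, 0.923 to 1.89), 334 and 297 CPM of Zeb2 (1.12-fold, 0.841 to 1.53) and 928 and 907 CPM of Spi1 (1.02-fold, 0.866 to 1.22). Tcf4 in plasmacytoid DCs was 0.802-fold in KO (0.482 to 1.31), from 28 UMIs in KO and 45 in WT.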

How the data were processed

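Each deposited matrix gives whole UMI counts by gene and barcode, with no scaling by the authors seen in the values. Cell Ranger 1.3 and mm10 are named, per the submitters' processing notes, while the matrix header names software 3.0.2. The library chemistry and any use of strand were not given in the sources used here. Gene positions used GENCODE M21 on GRCm38, the mm10 assembly.

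Cells needed 500 UMIs, 300 genes and at most 10% mitochondrial UMIs, which left out 133 KO and 132 WT barcodes. Scrublet called 5 KO and 6 WT doublets (0.460% and 0.607%), which were removed. Kept were 1081 KO and 982 WT cells. Both libraries were clustered together in scanpy 1.11.5 (2000 variable genes, 30 components, 15 neighbours, Leiden resolution 1), and the 945 antigen-presenting cells again. Variable genes excluded the 10 factors, Tcf7, receptor segments and mitochondrial genes. A cluster was named from at least 3 markers found in 25% of its cells and 2-fold above the other cells. The marker rule left out 39 KO and 31 WT cells of named clusters.

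Counts were summed per class and library and divided by the class total (CPM). Levels have exact Poisson 95% intervals and ratios exact conditional binomial ones, computed with scipy 1.17.1. These cover counting error only, and amplified reads of 3 pooled tumors give no replicate error. No p-value was computed. A member needed 20 UMIs over both libraries to be compared between them. The ratio and its call were tested on counts simulated with counting error alone. That test could not cover UMIs gathered in a few cells. All 10 factors are named, with 3 like genes each and called members of 9 lists, at most 4 per list and comparison, ranked by the interval bound nearest to 1. The factors and lists were chosen with earlier results of these data known. Markers inside clusters and splits by cDC1 markers were added after the values were seen. One listed gene is not reported here. Alternatives were other class rules, filters, scalings and cells left out.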

Additional observations from a re-analysis of the deposited data

Results flagged for a closer look

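Irf8 stood out because its KO over WT ratio lay in opposite directions in 2 classes. It was 1.82 in mature DCs (926 CPM in KO and 509 CPM in WT) and 0.629 in macrophages (241 CPM in KO and 384 CPM in WT). The difference between these ratios was not tested, since there is 1 library per group. In mature DCs the call held under all 13 settings, the main one included, with log2 ratios of 0.65 to 0.90. Changing the UMI minimum could not alter that call at its counts. In macrophages it held under 8 of 12, with log2 ratios of -0.82 to -0.09, and 3 WT cells held 66 of the 116 Irf8 UMIs.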

How the results depend on the processing

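No paired analysis was possible because each group has 1 library. The main count of 6 called KO over WT pairs ranged from 4 to 9 over the alternatives, the main count of 15 called class comparisons from 12 to 19, and the 6 members with the same top class in both libraries from 5 to 8. Tcf4 in cDC2s, not called at a log2 KO over WT of 0.11, was lower in KO at -0.71 by marker gate alone, at -0.89 with called doublets kept and at -0.67 at Leiden resolution 0.5, and the cause was not tested. Leaving out the 3 top cells, an alternative chosen after seeing the data, left Irf8 in macrophages at -0.09. Beside Irf8, the calls held in 12 of 13 settings, the main one included, for Batf3 in cDC2s (0.48 to 1.34) and Zbtb46 in mature DCs (-0.80 to -0.56), 10 of 13 for Klf4 in cDC1s (-0.70 to -0.41) and 9 of 12 for Zeb2 in cDC1s (1.01 to 2.90). In the setting that used the mean of each cell's CPM, calls rested on the fold alone, without an interval. At resolution 0.5 no cluster was named plasmacytoid DC, monocyte or macrophage, so those values could not be had. Of the shares of cells, 73 moved outside the interval of their thinned value when left unthinned and 31 when thinned to 1000 UMIs. Plasmacytoid DCs and WT monocytes are limited by their number of cells, and Irf4 and Bcl6 by depth.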
